A study of Homo sapiens with 4 samples.

Results

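The 9 genes described here encode receptor chains, kinases and inhibitors of the IFN-γ signalling route, and transcription factors of the related STAT family. They are IFNGR1, IFNGR2, JAK1, JAK2, STAT2, STAT3, SOCS1, SOCS3 and PTPN2. They were taken from the count table by gene symbol, and make up 9 of its 46427 genes. The data are mRNA sequencing counts from SNU638, a human gastric cancer cell line. The cells carried either a control vector (Control, n = 2 libraries) or a vector for YTHDF1 (YTHDF1, n = 2 libraries), numbered replicate 1 and replicate 2 in each case. All 4 cultures went without serum for 24 h and received IFN-γ at 10 ng/ml, for 8 h per the sample labels and for 24 h in the figure legends of the study. No culture without IFN-γ was analysed here, so a level below is the level in stimulated cells and not an induction. The series asked whether forced YTHDF1 expression changes the response of these cells to IFN-γ.

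IFN-γ binds a receptor built from IFNGR1, which holds the ligand, and IFNGR2, which is needed to start the signal. JAK1 and JAK2 are the tyrosine kinases attached to these chains, and once active they phosphorylate STAT transcription factors, which enter the nucleus and switch on target genes. SOCS1 and SOCS3 are made in response to cytokines and hold the kinases in check, and PTPN2 is a phosphatase that removes phosphate from JAK and STAT proteins. YTHDF1 is a cytoplasmic protein that binds mRNA carrying N6-methyladenosine (m6A), a methyl mark on adenosine.

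Each library held between 57398137 and 60864942 counted reads. YTHDF1 itself, the check of the vector, stood at 82.2 and 80.3 CPM (counts per 1000000 reads) in the Control libraries and at 16494 and 2628 CPM in YTHDF1 replicates 1 and 2, so the YTHDF1 libraries differed 6.28-fold from each other. The libraries also differed by replicate number. At an adjusted p under 0.05 (edgeR quasi-likelihood test, Benjamini-Hochberg adjustment), 51.8% of the 17781 tested genes differed between the replicate 2 and the replicate 1 libraries. Between the vectors 0% did. These shares are not like for like, since the first fit held the vector as a term and the second left out the replicate number. With the replicate number in the fit, 1 gene was higher and 7 were lower in YTHDF1 at that adjusted p and a log2 difference of at least 0.5. The labels call the replicates biological but do not say what their number stands for, so p-values measure only the spread between these libraries. Epithelial markers were present in every library, with a summed level of 3861 to 6719 CPM over 5 genes. All 5 of them differed between the replicate numbers, in both directions. The keratins KRT8 (0.79), KRT18 (1.01) and KRT19 (0.36) were higher on the log2 scale in the replicate 2 libraries. CDH1 (-0.58) and EPCAM (-0.18) were lower. Of the leukocyte, fibroblast and endothelial markers, 4 of 5, 3 of 4 and 3 of 3 stayed under 1 CPM in all libraries. The exceptions were CD68 (5.16 to 6.08 CPM) and COL1A1 (5.70 to 10.9 CPM). COL1A1 was lower in the replicate 2 libraries (log2 difference -0.91, adjusted p = 8.38e-05, edgeR). The part of these differences in the results below was not tested.

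To show the DNA from which the genes are read, the RefSeq (GRCh38.p14) promoter windows were searched for the sequences that STAT proteins and IFN-regulated factors are known to bind. Each window runs from 250 bases before to 50 bases after an annotated start, and the 9 genes have 16 windows. The palindromes made of TTC and GAA with 3 or 4 bases of any kind between them, which STAT dimers bind, were in 0 of the 16, against 7.66% and 6.44% of all 35116 RefSeq windows. GAAA repeated after 2 bases of any kind, the core of the interferon-stimulated response element, was in 1 window on either strand, that of SOCS1, with its first base at position -113 from the start, against 3.57% of all windows. CCAAT was in the windows of STAT2 and STAT3 (34.6% of all windows), as ATTGG on the gene's strand. TATAAA was in 0 of the 16 (11.5% of all windows). The windows of SOCS3 (chr17:78360876-78361175 and chr17:78359618-78359917), PTPN2 (chr18:12840913-12841212) and IFNGR2 (chr21:33403163-33403462) do not hold the start of the gene's GENCODE span. Those starts are chr17:78360077, chr18:12929643 and chr21:33402896, so the DNA around them was not searched. SOCS1, STAT2 and STAT3, whose windows held a match, were higher in the replicate 2 libraries, as were JAK2 and SOCS3, whose windows held none. A relation between matches and levels was not tested. The 3 windows with a match are shown. They are written on the gene's strand, all 3 being minus-strand genes, with capitals marking that repeat in SOCS1 and the ATTGG matches in STAT2 and STAT3. They lie at chr16:11256155-11256454 (SOCS1), chr12:56360058-56360357 (STAT2) and chr17:42388393-42388692 (STAT3).
SOCS1: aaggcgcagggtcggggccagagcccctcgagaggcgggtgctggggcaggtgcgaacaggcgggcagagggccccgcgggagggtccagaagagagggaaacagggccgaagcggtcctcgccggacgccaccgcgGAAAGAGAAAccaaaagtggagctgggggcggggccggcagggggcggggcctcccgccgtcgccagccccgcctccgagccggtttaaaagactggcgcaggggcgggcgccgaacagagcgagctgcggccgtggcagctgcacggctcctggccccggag
STAT2: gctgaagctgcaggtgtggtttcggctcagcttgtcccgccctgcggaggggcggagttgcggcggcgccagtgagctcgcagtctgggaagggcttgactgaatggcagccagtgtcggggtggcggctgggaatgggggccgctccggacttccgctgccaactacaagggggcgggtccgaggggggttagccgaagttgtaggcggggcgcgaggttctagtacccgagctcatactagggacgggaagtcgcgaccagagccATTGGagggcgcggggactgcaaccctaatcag
STAT3: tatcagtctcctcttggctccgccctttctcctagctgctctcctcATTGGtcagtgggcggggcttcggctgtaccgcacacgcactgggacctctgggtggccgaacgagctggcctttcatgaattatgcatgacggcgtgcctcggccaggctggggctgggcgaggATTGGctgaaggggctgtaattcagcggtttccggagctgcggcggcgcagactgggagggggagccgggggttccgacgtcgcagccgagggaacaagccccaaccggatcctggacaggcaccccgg
A match of letters is a description of the window and does not show that a factor binds there, and windows without a match may hold other forms of the same sites.

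The levels of the 9 genes can be set side by side only per length, and this was done as CPM per kb of merged GENCODE exon (n = 4 libraries). STAT3 was the most abundant, at a mean of 53.3 CPM per kb (47.2 to 58.7), and STAT2 followed at 38.5 (35.4 to 41.9). SOCS3 came next at 30.8 CPM per kb (26.0 to 34.8), and IFNGR2 after it at 21.3 (20.8 to 22.2). These 4 genes did not overlap one another in level over the libraries, so that both STAT genes and SOCS3 stood above both receptor chains and both kinases. JAK2 had 16.8 CPM per kb (12.96 to 20.6) and JAK1 11.7 (9.77 to 13.6), and their ranges overlapped. IFNGR1, at 9.87 CPM per kb (9.30 to 10.4), overlapped with JAK1 and lay below IFNGR2 in every library. SOCS1 had 7 CPM per kb (5.69 to 8.36) and PTPN2 6.18 (6.004 to 6.38), and these last ranges also overlapped. The merged exon length counts every annotated exon, whether or not SNU638 uses it.

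**Figure D1:**
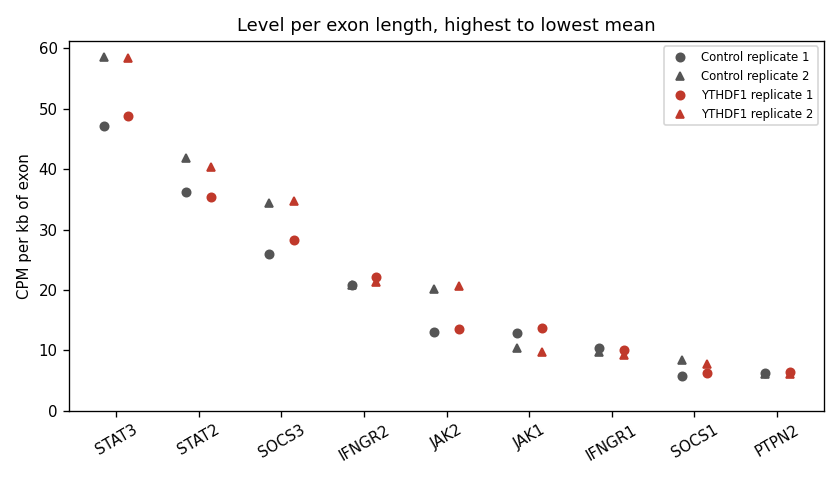
Level of each gene in CPM per kb of merged exon (y axis, linear), ordered by mean, with 1 point for each of the 4 libraries. Circles are replicate 1, triangles replicate 2, grey Control and red YTHDF1. STAT3 (47.2 to 58.7) and STAT2 (35.4 to 41.9) stand above the rest, and the replicate 2 triangles lie above the circles for JAK2, STAT2, STAT3, SOCS1 and SOCS3 and below them for JAK1.

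Between the vectors, none of the 9 genes passed the test. YTHDF1 itself, 7.65 (replicate 1) and 5.03 (replicate 2) higher on the log2 scale in the YTHDF1 libraries, did not pass after adjustment either (adjusted p = 1.00, edgeR). It passed only with the replicate number in the fit (adjusted p = 0.0022, edgeR). A missed call in the fit without the replicate number therefore says little about the size of a change. The fitted differences ran from -0.05 (IFNGR1) to 0.065 (IFNGR2), with 6 of 9 above 0 and a median of 0.0086, beside a median of 0.0046 over all tested genes. Of the 9 genes, 0 had an unadjusted p under 0.05 in edgeR with or without the replicate number in the fit, and all 9 adjusted p-values were 1.00. Over all 17781 tested genes, 674 had such a p with the replicate number and 24 without it, so a count of 0 among 9 genes does not set them apart. With a log2 difference of at least 0.5 required as well, 18 of all tested genes, or 0.101%, passed without the replicate number. The sign was alike within replicate 1 and within replicate 2 for 5 of the 9 genes, a count not made over all tested genes. The standard errors of the vector differences were 0.077 to 0.33, and 0.041 to 0.094 with the replicate number in the fit. With it, the differences ran from -0.051 (IFNGR1) to 0.071 (SOCS3). The SEs of vector differences given gene by gene below come from the fit without it, so they take in the spread between the replicate numbers. With it, the SE was 0.054 for JAK1, 0.045 for JAK2, 0.041 for STAT3 and 0.094 for SOCS1.

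The receptor chains had the steadiest levels along with PTPN2. IFNGR1 (gene ID 3459, chr6:137197484-137219449, minus strand, GRCh38) stood at 34.1 and 31.7 CPM in Control replicates 1 and 2 and at 33.1 and 30.5 CPM in YTHDF1 replicates 1 and 2. The vectors overlapped, while both replicate 2 libraries lay below both replicate 1 libraries. The difference between the vectors was -0.05 on the log2 scale (SE 0.11), and that between replicate 2 and replicate 1 was -0.11 (SE 0.061, adjusted p = 0.156, edgeR). IFNGR2 (gene ID 3460, chr21:33402896-33479348, plus strand) stood at 61.6 and 61.4 CPM in Control and at 65.7 and 62.9 CPM in YTHDF1. It was the only one of the 9 genes whose vectors did not overlap, with every YTHDF1 library above every Control library. The size of that gap was 0.065 on the log2 scale (SE 0.077), or 4.63%, with 0.094 in replicate 1 and 0.035 in replicate 2. Such a lack of overlap was common, since 11.5% of all tested genes had it. IFNGR2 shares 380 exon bases, 12.8% of its exon length, with TMEM50B on the opposite strand, which had 2388 to 2677 counts, and the strand setting of the counting is not given in the sources used here, so reads of that stretch may be shared.

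**Figure D2:**
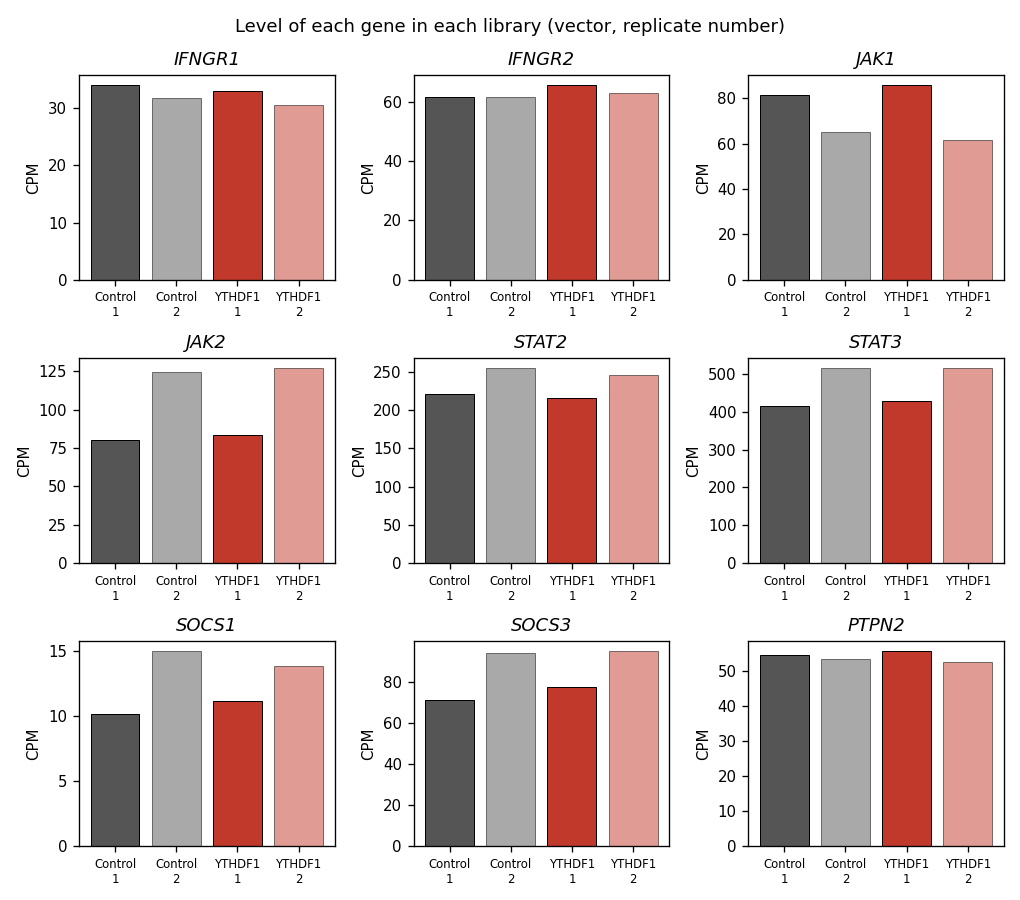
Level of each of the 9 genes in CPM (y axis, from 0, own scale in each panel) in each of the 4 libraries, with dark bars for replicate 1, light bars for replicate 2, grey for Control and red for YTHDF1. In JAK2, STAT2, STAT3, SOCS1 and SOCS3 both light bars are above both dark bars, JAK1 shows the reverse, and IFNGR1, IFNGR2 and PTPN2 are nearly level.

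The kinases differed in opposite directions between the replicate numbers, JAK2 by the largest size of the 9 genes. JAK2 (gene ID 3717, chr9:4984390-5128183, plus strand) stood at 79.9 and 124.7 CPM in Control replicates 1 and 2 and at 83.3 and 127.2 CPM in the YTHDF1 replicates. The replicate 2 libraries lay above the replicate 1 libraries in both vectors, by 0.64 (Control) and 0.61 (YTHDF1) on the log2 scale. JAK2 was thus 1.54-fold higher in the replicate 2 libraries (log2 difference 0.63, SE 0.046, adjusted p = 2.64e-06, edgeR). It was the only one of the 9 genes past both an adjusted p of 0.05 and a log2 difference of 0.5, against 25.7% of all tested genes. Between the vectors JAK2 differed by 0.04 (SE 0.33), with 0.059 in replicate 1 and 0.029 in replicate 2. With the replicate number in the fit the difference was 0.044 (SE 0.045).

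JAK1 (gene ID 3716, chr1:64833229-64966504, minus strand) stood at 81.5 and 65.3 CPM in Control replicates 1 and 2 and at 86.0 and 61.7 CPM in the YTHDF1 replicates. Both replicate 2 libraries were below both replicate 1 libraries, by 24.2% in the fit (log2 difference -0.40, SE 0.054, adjusted p = 0.000198, edgeR). The YTHDF1 libraries held both the highest and the lowest JAK1 level, so the vectors overlapped, with a difference of 0.0086 (SE 0.22). Within replicate 1 the YTHDF1 library was 0.078 above Control on the log2 scale (95% counting interval 0.021 to 0.13), and within replicate 2 it was 0.082 below (-0.15 to -0.017). These intervals cover the counting error of single libraries only.

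Both STAT genes were higher in the replicate 2 libraries, with vectors that overlapped. STAT3 (gene ID 6774, chr17:42313324-42388568, minus strand), the main mediator of IL-6 family cytokines, stood at 415.6 and 516.9 CPM in Control and at 429.9 and 515.0 CPM in YTHDF1. It was 1.22-fold higher in the replicate 2 libraries (log2 difference 0.29, SE 0.041, adjusted p = 0.000293, edgeR), by 0.31 in Control and 0.26 in YTHDF1. STAT2 (gene ID 6773, chr12:56341597-56360155, minus strand), which pairs with IRF9 in the response to type I interferon, stood at 221.3 and 255.6 CPM in Control and at 216.0 and 246.5 CPM in YTHDF1. Its difference between the replicate numbers was smaller, 1.15-fold (log2 0.20, SE 0.042, adjusted p = 0.00314, edgeR). The differences between the vectors were 0.02 (SE 0.17) for STAT3 and -0.04 (SE 0.13) for STAT2.

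The feedback inhibitors SOCS1 and SOCS3 were also higher in the replicate 2 libraries. SOCS1 (gene ID 8651, chr16:11254405-11256200, minus strand, 1 exon in the merged annotation) had the fewest reads of the 9 genes, with 607 and 852 counts in Control and 658 and 838 in YTHDF1. This came to 10.2 and 15.02 CPM in Control and 11.2 and 13.9 CPM in YTHDF1, with both replicate 2 libraries above both replicate 1 libraries. SOCS1 was 1.35-fold higher in the replicate 2 libraries (log2 0.43, SE 0.094, adjusted p = 0.00354, edgeR). The vectors differed by -0.01 (SE 0.29), made up of 0.13 in replicate 1 and -0.11 in replicate 2, each with a counting interval that takes in 0. SOCS1 lies inside the span of a RefSeq long noncoding RNA, LOC105371082, by 1788 bases, and that gene had 341 and 155 counts in Control and 287 and 163 in YTHDF1, lower where SOCS1 was higher.

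SOCS3 (gene ID 9021, chr17:78356778-78360077, minus strand) stood at 70.9 and 93.9 CPM in Control and at 77.4 and 95.04 CPM in YTHDF1, again with the replicate 2 libraries on top. The difference was 1.27-fold (log2 0.35, SE 0.050, adjusted p = 0.000262, edgeR), by 0.40 in Control and 0.30 in YTHDF1. Between the vectors SOCS3 differed by 0.065 (SE 0.20), with 0.13 in replicate 1 and 0.018 in replicate 2. PTPN2 (gene ID 5771, chr18:12785478-12929643, minus strand) was nearly level, at 54.5 and 53.2 CPM in Control and at 55.6 and 52.3 CPM in YTHDF1. Its difference was 0.0034 (SE 0.084) between the vectors and -0.06 (SE 0.052, adjusted p = 0.354, edgeR) between the replicate numbers.

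Over the 9 genes, 5 were higher and 1 was lower in the replicate 2 libraries at an adjusted p under 0.05, against 23% and 28.7% of all tested genes in those directions. IFNGR1, IFNGR2 and PTPN2 did not pass. The replicate numbers did not overlap in 8 of the 9 genes, the exception being IFNGR2, and in 77.1% of all tested genes. The median log2 difference between the replicate numbers was 0.20 over the 9 genes and -0.01 over all tested genes. The replicate number went with a larger difference, in size, than the vector did in 8 of the 9 genes. This was not counted over all tested genes, so it does not set the 9 genes apart. The fit of the replicate numbers leaves 1 residual degree of freedom per gene before edgeR shares the spread between genes, which limits how firmly single p-values can be read.

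**Figure D3:**
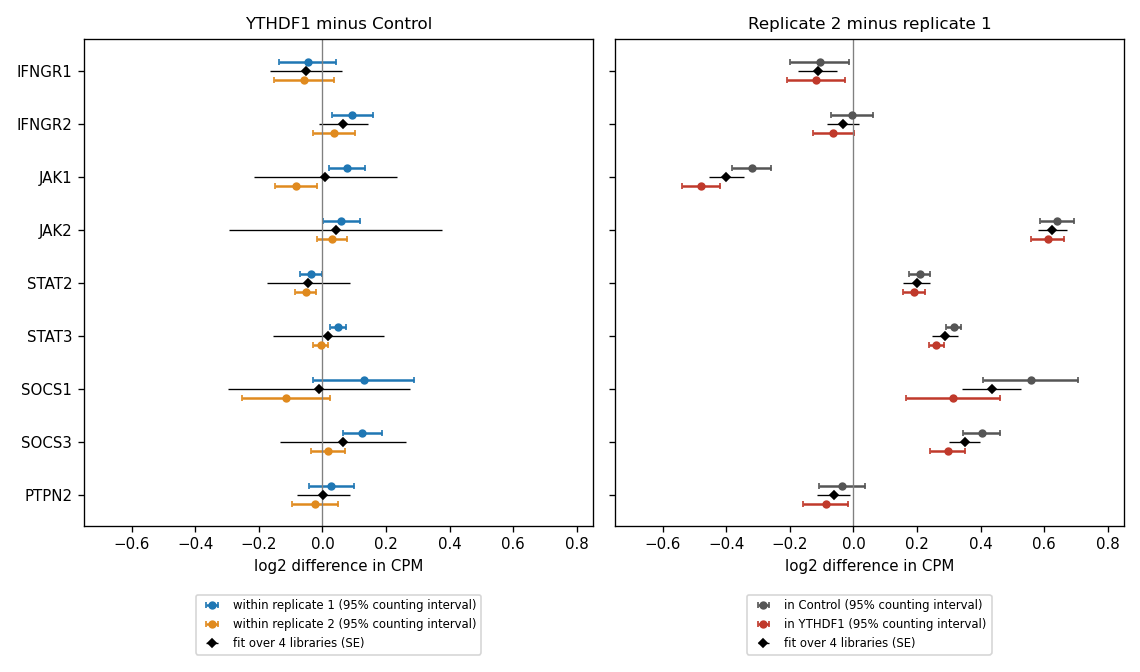
Log2 differences in CPM (x axis) for each of the 9 genes, YTHDF1 minus Control on the left and replicate 2 minus replicate 1 on the right. Circles are differences between single libraries with their 95% counting interval, and black diamonds are the fits over all 4 libraries with their SE. The fits on the left leave out the replicate number. On the left the fitted diamonds lie within 0.065 of 0, and on the right JAK2 (0.63) and SOCS1 (0.43) lie farthest above 0 and JAK1 (-0.40) farthest below it.

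The wider pathway list held 30 further receptors, kinases, STAT genes and inhibitors, of which 29 were tested. IFNG, the ligand itself, had 0 counts in all 4 libraries. None of the 29 passed the adjusted threshold between the vectors (edgeR). An unadjusted p under 0.05 was found for 0 of the 29, and for 24 of all 17781 tested genes. The median difference of the 29 was 0.0098, and 3 were without overlap, against 11.5% of all tested genes. The largest differences among those at 1 CPM or more were -0.19 (SE 0.44) for JAK3, a kinase of lymphocyte cytokine receptors, 0.13 (SE 1.88) for IL6R, the IL-6 receptor chain, and -0.11 (SE 0.15) for SOCS2. With the replicate number in the fit they were -0.22 (SE 0.18), -0.23 (SE 0.33) and -0.11 (SE 0.075). Between the replicate numbers 7 of the 29 were higher and 8 lower at an adjusted p under 0.05, against 23% and 28.7% of all tested genes. These 15 made up 51.7% of the 29, beside 51.8% of all tested genes. The replicate numbers did not overlap in 23 of the 29, against 77.1% of all tested genes.

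With a log2 difference of at least 0.5 required as well, 4 of the 29 were higher and 5 lower in the replicate 2 libraries. Over all tested genes, 25.7% passed both thresholds in either direction. The 4 that were higher come first. STAT5A, which acts downstream of many growth factor and cytokine receptors, had 3.35 and 6.68 CPM in Control and 2.70 and 7.80 CPM in YTHDF1 (log2 difference 1.26, SE 0.17, adjusted p = 0.000192, edgeR). Its close relative STAT5B had 17.01 and 29.2 CPM in Control and 19.3 and 29.02 CPM in YTHDF1 (log2 difference 0.68). CISH, an inhibitor of the SOCS family, differed by 0.67 and OSMR, the oncostatin M receptor chain, by 0.52. In the other direction, IL6R fell to 0.56 and 0.18 CPM in the replicate 2 libraries from 4.76 and 5.64 CPM in the replicate 1 libraries of Control and YTHDF1 (log2 difference -3.84, SE 0.36, adjusted p = 1.51e-05, edgeR). STAT4 differed by -1.31, SOCS6 by -1.08, STAT6, the IL-4 responsive STAT, by -0.74 and JAK3 by -0.66. STAT4 rested on 25 to 99 counts. JAK3 (adjusted p = 0.0854) and STAT4 (0.0998) did not pass in DESeq2. Left out singly, YTHDF1 replicate 2 brought JAK3 to -0.46 (adjusted p = 0.0949, edgeR) and STAT4 to -0.87 (adjusted p = 0.0703, edgeR), YTHDF1 replicate 1 brought STAT4 to -1.08 (adjusted p = 0.0662, edgeR), and Control replicate 1 brought OSMR to 0.48. Among the STAT genes named here, STAT2, STAT3, STAT5A and STAT5B were higher and STAT4 and STAT6 lower in the replicate 2 libraries. In the SOCS family SOCS1, SOCS3 and CISH were higher and SOCS6 was lower, as was SOCS5 (log2 difference -0.46, adjusted p = 0.000401, edgeR). SOCS2 (-0.11, adjusted p = 0.247, edgeR), SOCS4 (-0.05, adjusted p = 0.475, edgeR) and SOCS7 (0.010, adjusted p = 0.873, edgeR) did not pass. SOCS4, SOCS5 and SOCS7 are named after their values were seen.

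**Figure D4:**
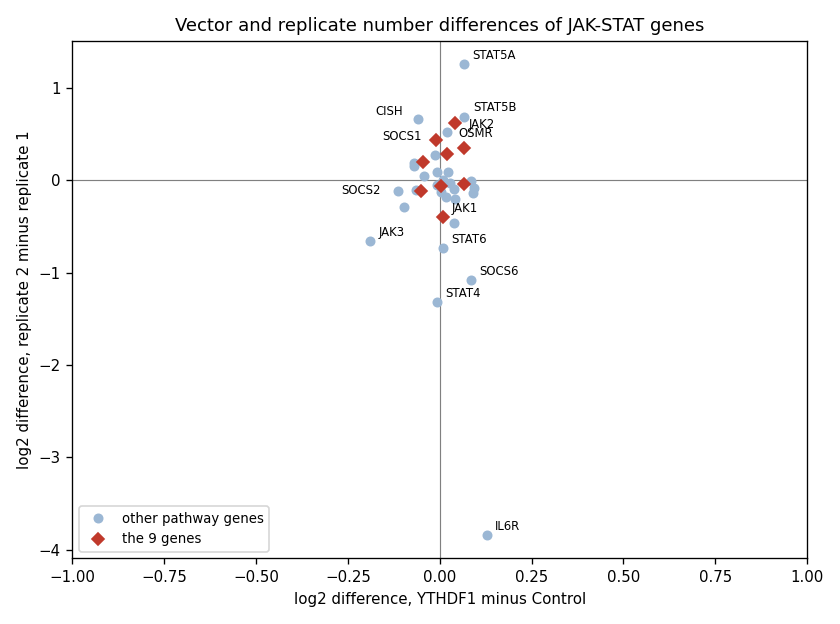
Each point is a gene, with its fitted log2 difference between the vectors on the x axis and between the replicate numbers on the y axis. Red diamonds are the 9 genes and blue circles the 29 tested genes of the wider list. The points form a narrow upright band, within 0.19 of 0 on the x axis and from -3.84 (IL6R) to 1.26 (STAT5A) on the y axis.

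The profiles over the 4 libraries most like those of the 2 genes with a log2 range of at least 0.5 were sought among 9991 genes at 10 CPM or more. Nearest to JAK2, by the Euclidean distance of log2 CPM from the gene's own mean, were TOP2A at 0.0195 and SMCHD1 at 0.0206. TOP2A, a topoisomerase of dividing cells, had 532.5 and 821.8 CPM in Control and 547.7 and 831.7 CPM in YTHDF1. Nearest to SOCS1 were DMAC2L at 0.0295, BTN2A2 at 0.031 and MREG at 0.0313. Likeness of this kind was widespread, with 576 genes within a distance of 0.2 of JAK2 and 1099 within that of SOCS1, and with 4 libraries it is a description only.

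GGACT, a frequent form of the sequence at which m6A is placed, was counted in the longest coding GENCODE transcript of each gene. It occurred at 1.83 per kb in SOCS3, 1.59 in JAK1, 1.53 in STAT2 and 1.12 in SOCS1, which lie above the median of 0.927 per kb over coding genes. IFNGR2 had 0.900 per kb, STAT3 0.594, PTPN2 0.577, JAK2 0.568 and IFNGR1 0.397. SOCS3 and JAK1, at the top of this order, and IFNGR1, at the bottom, differed between the vectors by 0.065, 0.0086 and -0.05 on the log2 scale. STAT2, next from the top, and JAK2, next from the bottom, differed by -0.04 and 0.04. A relation between GGACT and these differences was not tested. Methylation itself was not measured in these libraries.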

How the data were processed

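Poly(A) RNA of 4 SNU638 cultures was sequenced from stranded libraries. The authors deposited raw counts, whole reads per gene and library without normalization, keyed by NCBI Gene ID and symbol. The submitters' processing notes name Trimmomatic, HISAT2 and GRCh38. The counting tool, its strand setting and the annotation release are not given in the sources used here. Every count column was used. Groups came from the sample titles. From the counts, genes with enough reads per vector (filterByExpr, 17781 of 46427) were scaled by TMM and tested with edgeR 4.0.16 (quasi-likelihood, two-sided, Benjamini-Hochberg over all tested genes) in R 4.3.3, by vector alone and by replicate number with the vector as a term. CPM is counts per 1000000 reads after TMM scaling. A gene was called at p under 0.05 and a log2 difference of at least 0.5. Single-library intervals are 95% counting intervals, and cover counting error only, as reads carry no molecular identifiers. Precision is set by n = 2 per vector at 57398137 to 60864942 counts. DESeq2 1.42.0, limma 3.58.1, other filters, scalings and leaving out each library were alternatives. The scripts were tested on simulated data. Exon lengths, coordinates and GGACT came from GENCODE on GRCh38 and promoters from RefSeq. The 9 genes and the lists were chosen with earlier results of these data known. Text names the 9 genes and, of the pathway list, the genes called in either comparison and the 3 with the largest vector difference at 1 CPM or more. For genes with a log2 range of at least 0.5, up to 3 nearest profiles are named. Items that these rules would take in but that are withheld are not reported here.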

Additional observations from a re-analysis of the deposited data

Results flagged for a closer look

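In 5 genes the difference between YTHDF1 and Control had opposite signs in replicate 1 and replicate 2, each with a 95% counting interval that leaves out 0. These were JAK1 among the 9 genes, and IL6R, STAT5A, PTPN1 and USP18 among the 29 tested genes of the wider pathway list. The rule was not applied to all tested genes, so this count does not set these genes apart. JAK1 had 0.078 in replicate 1 and -0.082 in replicate 2 on the log2 scale. IL6R had 0.24 and -1.59, the latter between 32 and 11 counts. STAT5A had -0.31 and 0.22. PTPN1, a phosphatase of JAK proteins, had 0.072 and -0.072, and USP18, an inhibitor of type I interferon signalling, had 0.099 and -0.10. The difference between the replicates was not tested, since each vector has a single library per replicate number, and the intervals hold counting error only.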

How the results depend on the processing

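With the replicate block (the replicate number as a term beside the vector), 58 genes were higher and 134 lower in YTHDF1 at an unadjusted p under 0.05 and a log2 difference of at least 0.5, against 4 and 14 without it, and 1 and 7 passed after adjustment, against 0 and 0. None of the 9 genes was among either. Same-numbered libraries deviated together (correlation 0.875), but the numbers have no stated meaning and there are only 2 pairs, so this is a hint from the data. DESeq2 with the replicate block, chosen after seeing the data, gave 10 and 31 unadjusted and 1 and 4 adjusted calls. DESeq2 alone gave 1 and 2 adjusted calls and the edgeR likelihood ratio test 2 and 2. Without a filter on low counts there were 32 higher and 50 lower at an unadjusted p. Leaving out 1 library gave 4 to 49 higher and 11 to 55 lower at an unadjusted p, and 0 after adjustment. In such fits the lone library is assumed to vary like the others. They held only the factor compared, the vector or the replicate number, and not the other.

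Among the vector differences of the 9 genes, 75 of 81 values under other settings kept their sign and side of the threshold, and all adjusted p-values were 0.999 or more. The 6 exceptions lay near 0: JAK1 (-0.0039 in limma-voom, -0.00045 with the replicate block), SOCS1 (0.014 in limma-voom, 0.0039 with the block, 0.0071 in DESeq2 with the block) and PTPN2 (-0.00037 when library sizes were computed without YTHDF1). IL6R turned to -0.71 in limma-voom, -0.23 with the block and -0.54 in DESeq2 with the block. The cause was not tested. With 1 library left out, 15 of 36 values changed sign. Those fits held no replicate number, and the vectors in them differed in their mix of replicate numbers. The ranges of these values therefore also take in differences between the replicate numbers. Those ranges were -0.11 to 0.0033 for IFNGR1, -0.25 to 0.22 for JAK1, -0.30 to 0.40 for JAK2, -0.15 to 0.062 for STAT2, -0.13 to 0.18 for STAT3, -0.26 to 0.29 for SOCS1, -0.12 to 0.28 for SOCS3, -0.039 to 0.039 for PTPN2, -0.66 to 0.16 for JAK3 and -3.85 to 2.36 for IL6R. Between the replicate numbers, 72 of 72 values of the 9 genes held under other settings. With 1 library left out, 34 of 36 held, IFNGR2 turning to 0.016 (range -0.080 to 0.016) and SOCS1 passing 0.5 at 0.50 (0.37 to 0.50), both without YTHDF1 replicate 1. The calls of OSMR (0.48 to 0.56), JAK3 (-0.85 to -0.46) and STAT4 (-1.83 to -0.87) were lost in some such fits. JAK3 (adjusted p = 0.0854, log2 -0.66) and STAT4 (0.0998, -1.34) lost their call in DESeq2, and STAT4 (-1.31, adjusted p = 0.0595) without a filter. The lowest count of the 9 genes in a library was 607, for SOCS1, and n = 2 per vector limits the comparison of the vectors.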
